A study of Mus musculus with 8 samples.

Results

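The 29 genes of branched-chain amino acid and ketone catabolism were followed in ventricles of mice with a cardiac knockout of Med1. The members were chosen by symbol from the biochemistry of these pathways, with earlier results of these data known. Each symbol was found in 1 of the 23534 rows that held values in all libraries. Their levels in 4 Med1cKO libraries were compared with those in 4 WT libraries. The knockout animals are named Med1cKO, and the animals labelled WT were Med1fl/fl mice, whose Med1 was floxed but not deleted. All were C57BL/6 mice at postnatal day 21, and the whole ventricles were used. The labels used here name neither the promoter that drove the deletion nor whether a library came from 1 animal or a pool. Should libraries share animals or cultures, the p-values reflect technical spread alone.

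The branched-chain amino acids leucine, valine and isoleucine lose their amino group to a branched-chain aminotransferase and are then decarboxylated in mitochondria by the branched-chain ketoacid dehydrogenase. A kinase switches this dehydrogenase off and a phosphatase switches it on, and the carbon skeletons then run through separate branches to acetyl-CoA, acetoacetate or, by way of propionate, succinyl-CoA. Ketone bodies from the blood enter through monocarboxylate transporters and are split by mitochondrial enzymes to acetyl-CoA. The heart is known to oxidise ketone bodies as a fuel alongside fatty acids. Med1 is a subunit of Mediator and a known coactivator of nuclear receptors, several of which control mitochondrial fuel genes.

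Of the 29 members, 27 reached the minimum of a mean of 1 FPKM (fragments mapped to a gene, scaled to its transcript length and to the size of the library) over all 8 libraries. Among these 27, 22 were lower in Med1cKO ventricles, 1 was higher and 4 were not called, with limma on log2(FPKM + 1) and an adjusted p under 0.05 over 11974 genes. Over all genes tested, 61.3% were called by the same rule, 16.4% lower and 44.9% higher. The median log2 change, Med1cKO minus WT, was -0.88 for the 27 members and 0.25 for all genes tested. In bulk tissue, fewer cells of a type and less RNA per cell cannot be told apart. After the libraries were rescaled by the median of ratios, which put the median of all genes at 0.01, 23 members were lower and 1 higher, against 26.9% and 27.2% of all genes. Quantile normalization also gave 23 members lower and 1 higher, against 25.6% and 28.7% of all genes. All log2 changes below are on the scale of log2(FPKM + 1) as deposited unless stated.

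The FPKM of the Med1cKO libraries lay wholly below those of the WT libraries in 21 of the 27 members and wholly above them in 1. Over all genes tested 57% did not overlap, 15.3% with Med1cKO below WT and 41.7% with Med1cKO above. Of the 27 members tested, 11 were called lower with a log2 change of -1 or less, as were 5.16% of all genes tested. Among genes called lower, these were 11 of 22 members and 618 of 1964 genes. Both group means reached 1 FPKM in each of the 27 members, so none entered the test through the higher group alone.

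**Figure D1:**
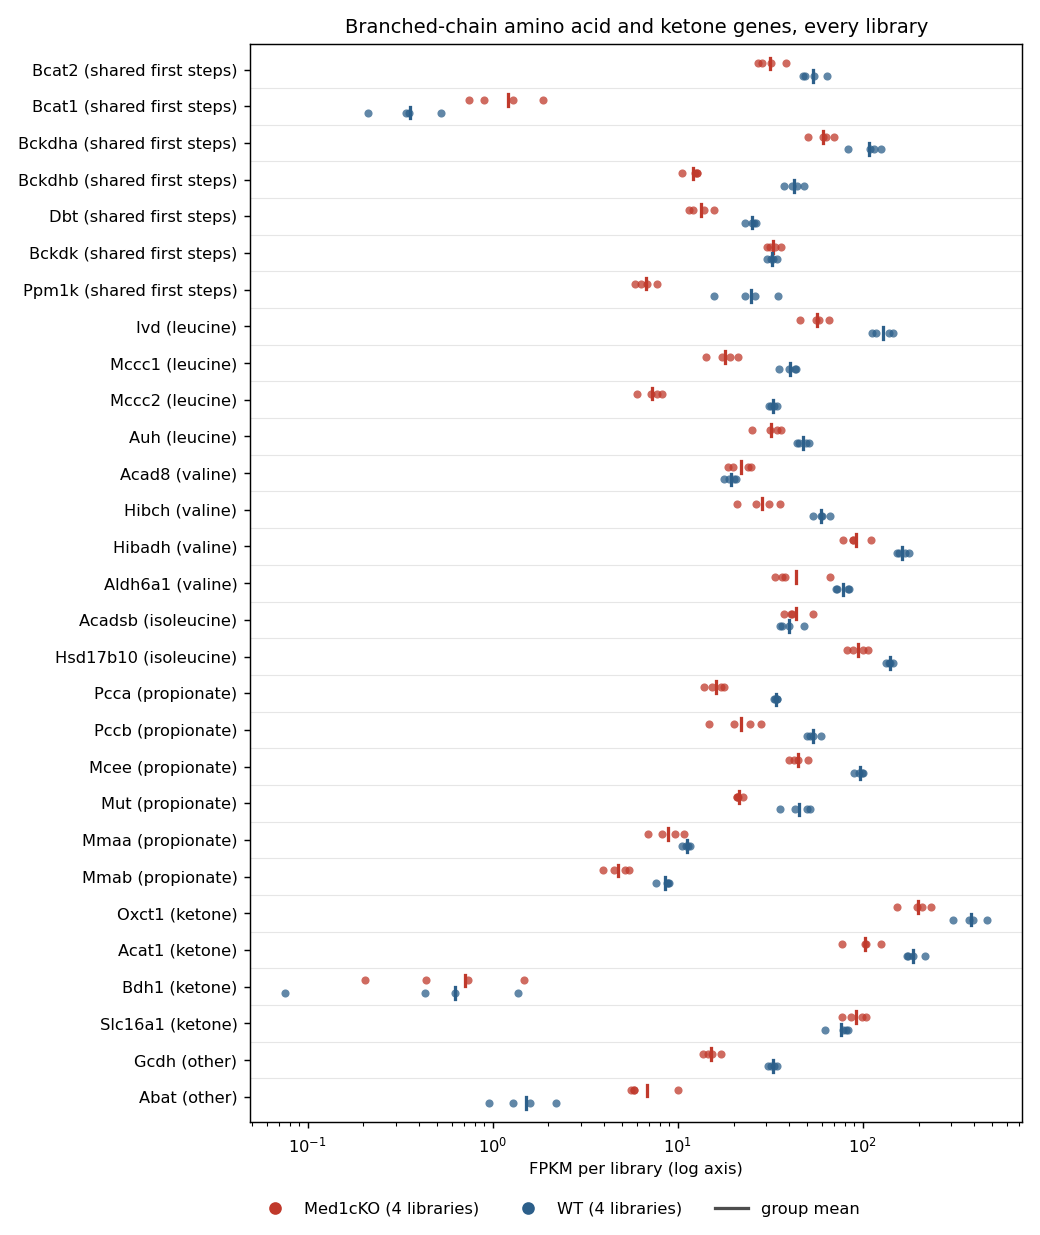
FPKM of each member in every library on a log axis, with Med1cKO libraries (red) above WT libraries (blue) in each row and group means as vertical bars. The Med1cKO points of Mccc2, Bckdhb and Ppm1k lie wholly to the left of WT, those of Bckdk overlap WT, and those of Abat lie wholly to the right.

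The libraries matched their labels at the targeted gene. Med1 had 7.80, 8.37, 7.89 and 9.15 FPKM in the Med1cKO libraries, against 15.5, 16.1, 10.6 and 16.8 FPKM in the WT libraries (exact two-sided permutation p = 0.0286, the smallest that 70 assignments allow). Total FPKM ran from 481650 to 502549 in Med1cKO libraries and from 507458 to 536146 in WT libraries, and the number of fragments is unknown. All 9 cardiomyocyte markers were detected, and their summed level was 15780 to 23470 FPKM in Med1cKO libraries, against 47028 to 52393 FPKM in WT libraries. Of these markers, 8 were lower in Med1cKO and Actn2, named after its values were seen, was higher, as deposited and after rescaling. Beside this, 16.4% of all genes were lower as deposited and 26.9% after rescaling. The 5 atrial myocyte markers summed to 5040 to 7931 FPKM in Med1cKO and 192 to 378 FPKM in WT, and Nppa alone gave 5018 to 7829 FPKM of the Med1cKO sums. Med1cKO 4 stood apart in the other 4 atrial markers, named after their values were seen. It had 726 FPKM of Myl7, 781 of Myl4, 188 of Sln and 66.0 of Bmp10, whereas the highest of the other Med1cKO libraries had 61.6, 81.7, 18.6 and 6.21 FPKM of these genes. WT libraries had at most 0.680 FPKM of Myl7 and 6.34 FPKM of Myl4, and Sln and Bmp10 were read as 0 in all of them. Without Med1cKO 4, 21 members were lower and 2 higher. The 6 fibroblast markers summed to 889 to 1569 FPKM in Med1cKO and 595 to 697 FPKM in WT. Of these, 5 were higher as deposited and 3 after rescaling, beside 44.9% and 27.2% of all genes. The 5 endothelial markers summed to 208 to 277 FPKM in Med1cKO and 209 to 257 FPKM in WT. Of these, 1 was higher and 1 lower as deposited, and 0 were higher and 3 lower after rescaling, where 26.9% of all genes were lower. The macrophage markers summed to 53.2 to 89.2 FPKM in Med1cKO and 73.2 to 107 FPKM in WT, the hepatocyte markers to 0 to 0.33 FPKM in Med1cKO and 0 to 0.103 FPKM in WT, and the adipocyte markers to 0.29 to 116 FPKM in Med1cKO, where the highest was again Med1cKO 4, and 0 to 15.02 FPKM in WT. The part of these marker shifts in the falls of the members was not tested.

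Promoter sequences are shown for Mccc2, Ppm1k and Pccb, the members with 1 listed start site that fell most, and for the kinase gene Bckdk, which was not called. They are the 250 bases before the transcription start from RefSeq (GRCm38.p6), 5′ to 3′ on the gene's strand, and the capitals mark motifs on either strand. The first motif is CCAAT. The second is AGGTCA. The third is GCGCA followed by any base and then by GCGC.
Mccc2: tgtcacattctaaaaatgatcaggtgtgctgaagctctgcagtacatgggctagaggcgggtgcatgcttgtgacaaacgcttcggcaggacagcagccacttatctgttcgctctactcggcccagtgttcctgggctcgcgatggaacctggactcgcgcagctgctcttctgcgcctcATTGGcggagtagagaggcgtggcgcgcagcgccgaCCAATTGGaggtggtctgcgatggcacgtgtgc
Ppm1k: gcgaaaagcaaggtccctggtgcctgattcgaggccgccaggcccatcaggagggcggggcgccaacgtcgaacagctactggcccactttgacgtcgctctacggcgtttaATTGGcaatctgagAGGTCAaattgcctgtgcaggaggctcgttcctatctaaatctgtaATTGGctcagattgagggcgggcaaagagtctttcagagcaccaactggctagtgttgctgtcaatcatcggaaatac
Pccb: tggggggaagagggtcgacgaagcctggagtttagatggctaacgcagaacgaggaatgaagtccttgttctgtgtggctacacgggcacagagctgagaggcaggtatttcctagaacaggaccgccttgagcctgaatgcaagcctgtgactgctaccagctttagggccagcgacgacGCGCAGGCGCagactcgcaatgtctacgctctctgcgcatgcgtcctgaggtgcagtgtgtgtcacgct
Bckdk: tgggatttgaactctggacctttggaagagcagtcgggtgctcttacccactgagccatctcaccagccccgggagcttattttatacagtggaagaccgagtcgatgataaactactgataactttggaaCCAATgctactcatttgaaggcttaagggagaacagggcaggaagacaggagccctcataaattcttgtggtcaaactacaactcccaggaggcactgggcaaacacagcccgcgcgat

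These stretches lie at chr13:100015640-100015889 on the minus strand (Mccc2), chr6:57535488-57535737 on the minus strand (Ppm1k), chr9:101034885-101035134 on the minus strand (Pccb) and chr7:127903823-127904072 on the plus strand (Bckdk). CCAAT, the box read by the factor NF-Y, occurred 3 times before Mccc2, 2 times before Ppm1k and 1 time before Bckdk, and before Mccc2 a match on each strand overlaps. AGGTCA, the half-site of many nuclear receptors, occurred once, before Ppm1k. The longer motif with GCGCA, a form of the NRF1 site, occurred once, before Pccb. Promoters were listed for 25 of the 29 members, and some genes had several. CCAAT stood before 15 of these 25 genes and before 37.5% of all 27025 genes listed. AGGTCA stood before 5 of the 25 (Bcat1, Bckdhb, Ppm1k, Aldh6a1 and Pcca) and before 15.8% of all genes. The NRF1 form stood before 3 (Hibadh, Pccb and Mmaa) and before 4.23% of all genes. The longer nuclear receptor motifs AAGGTCA and AGGTCA repeated after 1 base stood before none of the 25, and before 4.70% and 0.0407% of all genes. A match describes these letters and shows no binding.

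Of the 7 members in the shared opening steps, 6 were tested, 5 fell and 1 was not called, with a median log2 change of -0.85. Beside this count and those of the branches below, 16.4% of all genes were lower as deposited and 26.9% after rescaling. Bcat2 encodes the mitochondrial aminotransferase, the form usual in muscle (chromosome 7, 45570153 to 45589710, mm10). It had 27.3, 38.5, 28.4 and 31.8 FPKM in Med1cKO libraries, against 47.2, 48.5, 63.7 and 54.5 FPKM in WT libraries. The groups did not overlap, and the Med1cKO mean was 58.9% of WT (log2 change -0.75 ± 0.13 SE, limma adjusted p = 0.000836). An antisense gene on the other strand, 0610005C13Rik, covers 20.4% of the exonic bases of Bcat2, and whether the authors counted by strand is not stated. Bcat1, the cytosolic aminotransferase, was under the minimum, with 0.743, 1.28, 0.902 and 1.88 FPKM in Med1cKO libraries and 0.526, 0.211, 0.340 and 0.353 FPKM in WT libraries. Its Med1cKO values were all above its WT values, and with no minimum its log2 change was 0.67 (limma adjusted p = 0.00893). Even so, its Med1cKO mean of 1.20 FPKM was far under that of Bcat2 at 31.5 FPKM.

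The dehydrogenase itself is built of 2 E1 subunits, an E2 core and an E3 subunit. Bckdhb, the E1 beta subunit (chromosome 9, 83948781 to 84124240), had 12.8, 12.3, 10.5 and 12.7 FPKM in Med1cKO libraries, against 44.0, 37.3, 41.1 and 48.2 FPKM in WT libraries. Every Med1cKO library lay far below the lowest WT library, and the log2 change was -1.74 ± 0.0969 (SE, limma adjusted p = 1.62e-06). Bckdha, the E1 alpha subunit, had 69.9, 60.9, 63.0 and 50.4 FPKM in Med1cKO libraries, against 109.6, 125, 115 and 83.4 FPKM in WT libraries. It fell less, to 56.3% of WT (log2 change -0.81 ± 0.14 SE, adjusted p = 0.000804). A stretch of 490 bases of its transcript of 1899 bases is identical in another gene, B3gnt8, and how fragments there were counted is not stated. Dbt, the E2 transacylase, had 15.7, 12.1, 11.4 and 13.8 FPKM in Med1cKO libraries, against 25.8, 23.2, 26.5 and 25.2 FPKM in WT libraries, or 52.7% of WT. Dld, the E3 subunit that other ketoacid dehydrogenases share, was named after its values were seen and averaged 127 ± 13.3 FPKM in Med1cKO and 274 ± 14.3 FPKM in WT (SD, n = 4 each), and it fell with a log2 change of -1.12. Of these 4 genes, Bckdhb had the lowest Med1cKO level relative to WT, at 28.3%.

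Of the enzymes that switch the dehydrogenase, the phosphatase fell and the kinase was not called. Ppm1k, the phosphatase that activates it (chromosome 6, 57506502 to 57535426), had 7.71, 5.90, 6.83 and 6.31 FPKM in Med1cKO libraries, against 23.1, 15.7, 26.2 and 34.8 FPKM in WT libraries. WT itself varied more than 2-fold, yet its lowest library stood above every Med1cKO library, and the log2 change was -1.71 ± 0.201 (SE, limma adjusted p = 8.47e-05). Bckdk, the kinase that inactivates the dehydrogenase, had 31.4, 36.05, 33.7 and 30.2 FPKM in Med1cKO libraries and 34.5, 32.6, 31.9 and 30.5 FPKM in WT libraries. The groups overlapped, and its log2 change was 0.02 (95% interval -0.16 to 0.19, adjusted p = 0.852). After rescaling it was -0.25 and passed (adjusted p = 0.024), as it did after quantile normalization, with -0.25 and 0.020. The ratio of kinase to phosphatase in a library, taken on FPKM + 1, was 3.72, 5.37, 4.43 and 4.26 in Med1cKO, against 1.47, 2.01, 1.21 and 0.879 in WT. The mean log2 ratio was 2.14 ± 0.218 in Med1cKO and 0.41 ± 0.502 in WT (SD, n = 4 each), a shift of 3.31-fold, and dividing a library by a factor leaves such a ratio almost as it is.

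Ratios were compared for 12 pairs of members that share a complex, a step or a route. The pairs too were chosen with earlier results of these data known, so their p-values are not those of pairs set in advance. In 6 pairs the Med1cKO and WT libraries did not overlap, each with an exact two-sided permutation p of 0.0286, the smallest possible. Adjusted over the 12 pairs this was 0.0571, so that no pair passed 0.05. Only 7 or more pairs at the smallest p could have passed. How often ratios of other gene pairs separate the groups was not computed, and 57% of single genes tested did not overlap. Without Med1cKO 4, 7 pairs passed (adjusted p = 0.049 by exact permutation), these 6 and Hibch over Hibadh. Bckdhb over Bckdha was 0.194, 0.215, 0.180 and 0.266 in Med1cKO, against 0.407, 0.303, 0.363 and 0.583 in WT. Mccc2 over Mccc1 was 0.536, 0.416, 0.347 and 0.475 in Med1cKO, against 0.741, 0.884, 0.779 and 0.866 in WT. Both ratios set 2 subunits of 1 enzyme against each other and were lower in every Med1cKO library than in any WT library, with log2 differences of -0.93 and -0.90. The first of these ratios has Bckdha below the line, with its stretch identical to B3gnt8. Mmab over Mmaa shifted by -0.43. Bcat1 over Bcat2 and Bdh1 over Oxct1 shifted by 1.42 and 1.04. Both rest on a gene near or under 1 FPKM, where the pseudocount of 1 weighs on the ratio. With a pseudocount of 0.1 the adjusted p by exact permutation was 0.0686 for Bcat1 over Bcat2 and 0.257 for Bdh1 over Oxct1. The separation of Bdh1 over Oxct1 rests on the pseudocount, and the 7 pairs that passed without Med1cKO 4 include this pair. The 6 pairs that overlapped were Dbt over Bckdha, Pccb over Pcca, Hibch over Hibadh, Mcee over Mut, Oxct1 over Acat1 and Acadsb over Acad8, with log2 differences from -0.25 to -0.05. Their exact p-values ran from 0.0857 to 0.800 before adjustment.

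**Figure D2:**
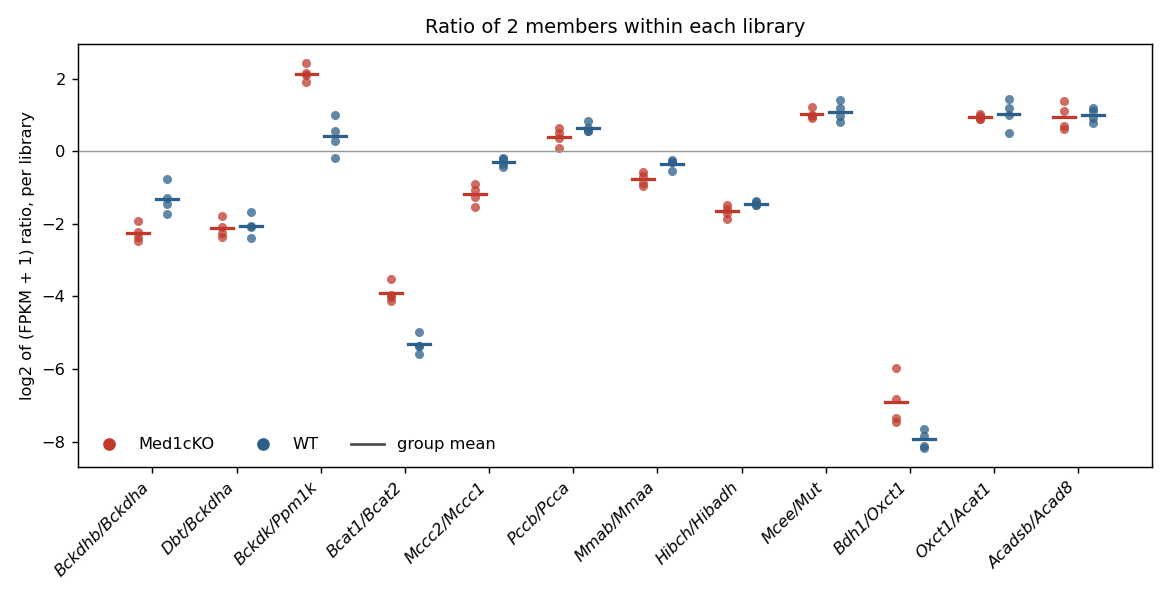
Log2 ratio of FPKM + 1 between 2 members within each library, for the 12 pairs, with Med1cKO (red) left of WT (blue), 4 libraries each, and bars for group means. The groups separate for Bckdhb/Bckdha, Bckdk/Ppm1k, Bcat1/Bcat2, Mccc2/Mccc1, Mmab/Mmaa and Bdh1/Oxct1.

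All 4 members of the leucine branch fell. Mccc2, the beta subunit of methylcrotonyl-CoA carboxylase (chromosome 13, 99948532 to 100015639), had 7.12, 8.17, 5.99 and 7.75 FPKM in Med1cKO libraries, against 31.8, 30.9, 33.2 and 34.5 FPKM in WT libraries. The Med1cKO mean was 22.3% of WT, the lowest share among the 27 members tested (log2 change -2.03 ± 0.0939 SE, limma adjusted p = 7.16e-07). Mccc1, the biotin-carrying alpha subunit of the same enzyme, had 14.1, 21.0, 19.2 and 17.4 FPKM in Med1cKO libraries, against 43.3, 35.1, 42.9 and 40.0 FPKM in WT libraries. It fell to 44.5% of WT, and its groups did not overlap either. Ivd, isovaleryl-CoA dehydrogenase, which acts just before this carboxylase, had 55.8, 65.8, 57.9 and 45.7 FPKM in Med1cKO libraries, against 138, 112, 145 and 118 FPKM in WT libraries (log2 change -1.18 ± 0.126 SE). Auh, the hydratase that follows, averaged 31.8 ± 4.82 FPKM in Med1cKO and 47.3 ± 3.57 FPKM in WT (SD, n = 4 each), a fall to 67.3% of WT.

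In the valine branch 3 of 4 members fell. Hibch, which hydrolyses hydroxyisobutyryl-CoA, had 20.8, 35.9, 26.5 and 31.2 FPKM in Med1cKO libraries, against 59.9, 53.7, 59.2 and 66.1 FPKM in WT libraries. Hibadh, the dehydrogenase of the next step, had 78.2, 110.9, 88.5 and 88.5 FPKM in Med1cKO libraries, against 156, 153, 168 and 177 FPKM in WT libraries. Both were lower in every Med1cKO library, at 47.9% and 56.0% of WT. Aldh6a1, methylmalonate semialdehyde dehydrogenase, had 66.4, 36.5, 37.9 and 33.7 FPKM in Med1cKO libraries, against 82.7, 72.3, 84.1 and 71.7 FPKM in WT libraries. Med1cKO 1 stood well above the other 3 Med1cKO libraries but still below WT (log2 change -0.87 ± 0.192 SE, adjusted p = 0.00332). Acad8, isobutyryl-CoA dehydrogenase at the head of the branch, had 19.8, 24.03, 24.9 and 18.6 FPKM in Med1cKO libraries and 20.7, 20.2, 17.7 and 18.8 FPKM in WT libraries. It was not called (log2 change 0.16, 95% interval -0.08 to 0.40), and its sign turned after rescaling (-0.11, also not called).

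The isoleucine branch has Acadsb at its acyl-CoA dehydrogenase step and Hsd17b10 at a later dehydrogenase step. Acadsb had 53.6, 37.3, 40.7 and 41.3 FPKM in Med1cKO libraries and 48.2, 35.5, 39.7 and 36.4 FPKM in WT libraries, and it was not called (log2 change 0.11, 95% interval -0.19 to 0.40, and -0.16 after rescaling). Hsd17b10, also a subunit of mitochondrial RNase P, averaged 94.5 ± 11.01 FPKM in Med1cKO and 139 ± 5.44 FPKM in WT (SD, n = 4 each). It fell to 67.8% of WT, with no overlap between the groups. Of the 3 acyl-CoA dehydrogenases of the branches, Ivd fell, and Acad8 and Acadsb were not called, and the difference between them was not tested.

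All 6 propionate members were called lower. Pcca, the biotin-carrying subunit of propionyl-CoA carboxylase, had 13.9, 17.7, 15.3 and 17.05 FPKM in Med1cKO libraries, against 34.5, 34.3, 32.9 and 33.4 FPKM in WT libraries. Pccb, its beta subunit (chromosome 9, 100982038 to 101034875), had 14.7, 28.1, 20.04 and 24.7 FPKM in Med1cKO libraries, against 51.6, 53.9, 59.5 and 49.9 FPKM in WT libraries. Both fell in every Med1cKO library, to 47.3% and 40.7% of WT, and the Med1cKO values of Pccb spread more (SD 26.6% of the mean, against 10.7% for Pcca). Mcee, methylmalonyl-CoA epimerase, averaged 44.4 ± 4.57 FPKM in Med1cKO and 96.1 ± 4.51 FPKM in WT (SD, n = 4 each). Mut, the cobalamin-dependent mutase that forms succinyl-CoA, had 20.8, 21.0, 20.9 and 22.5 FPKM in Med1cKO libraries, against 43.2, 35.4, 51.5 and 49.6 FPKM in WT libraries. The Med1cKO values of Mut hardly varied, and their mean was 47.5% of WT (log2 change -1.03 ± 0.114 SE, limma adjusted p = 5.91e-05).

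The propionate members also include 2 cobalamin genes that serve the mutase. Mmab, which adenosylates cobalamin, had 3.92, 5.42, 4.498 and 5.17 FPKM in Med1cKO libraries, against 8.76, 7.64, 8.89 and 8.94 FPKM in WT libraries. Mmaa, a GTPase that helps load the mutase, had 6.93, 10.8, 9.59 and 8.26 FPKM in Med1cKO libraries, against 11.04, 11.6, 10.6 and 11.3 FPKM in WT libraries. Its groups overlapped, its Med1cKO mean was 79.8% of WT, and its adjusted p was the highest of the 22 (log2 change -0.31 ± 0.117 SE, adjusted p = 0.043). It was lost (adjusted p from 0.0501 to 0.0943) when any library other than Med1cKO 2 was left out, and held with an adjusted p of 0.004 after rescaling.

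Of the 4 ketone members, 3 were tested, 2 fell and 1 was not called. Oxct1 encodes the CoA transferase that activates acetoacetate and was the most abundant member in both groups (chromosome 15, 4026428 to 4155344). It had 153, 235, 209 and 196 FPKM in Med1cKO libraries, against 393, 308, 372 and 470 FPKM in WT libraries. The groups did not overlap, although WT varied by 17.3% of its mean, and the Med1cKO mean was 51.3% of WT (log2 change -0.96 ± 0.157 SE, limma adjusted p = 0.000583). A transcript of the opposite strand, BC037032, shares 13.2% of the exonic bases of Oxct1. Acat1, the thiolase that ends both ketone and isoleucine breakdown, had 76.9, 125, 103 and 104 FPKM in Med1cKO libraries, against 172, 217, 186 and 174 FPKM in WT libraries, or 54.7% of WT. The groups overlapped in the ratio of Oxct1 over Acat1, with a mean log2 ratio of 0.95 ± 0.0587 in Med1cKO and 1.03 ± 0.392 in WT (SD, n = 4 each, exact permutation p = 0.657).

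Slc16a1 encodes the monocarboxylate transporter MCT1, which carries lactate and ketone bodies across the cell membrane. It had 104, 98.3, 86.7 and 76.8 FPKM in Med1cKO libraries and 83.1, 80.8, 78.2 and 62.2 FPKM in WT libraries. The groups overlapped and it was not called (log2 change 0.26, 95% interval -0.01 to 0.54, adjusted p = 0.0908). Without Med1cKO 4 it passed (0.34, adjusted p = 0.0322), whereas after rescaling its change was -0.01. Bdh1, hydroxybutyrate dehydrogenase, was under the minimum, at 1.47, 0.434, 0.204 and 0.737 FPKM in Med1cKO libraries and 0.431, 0.0755, 0.624 and 1.37 FPKM in WT libraries. Its groups overlapped fully, and its mean of 0.7104 FPKM in Med1cKO and 0.624 FPKM in WT stood far under that of Oxct1.

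The remaining members belong to neighbouring amino acid routes and moved in opposite directions. Gcdh, glutaryl-CoA dehydrogenase of lysine and tryptophan breakdown, had 15.2, 17.1, 14.6 and 13.7 FPKM in Med1cKO libraries, against 34.5, 30.8, 32.0 and 33.0 FPKM in WT libraries. It fell to 46.5% of WT (log2 change -1.06 ± 0.0811 SE, limma adjusted p = 8.06e-06). Abat, the mitochondrial GABA transaminase (chromosome 16, 8513429 to 8621567), had 9.96, 5.78, 5.82 and 5.58 FPKM in Med1cKO libraries, against 1.29, 0.958, 1.58 and 2.20 FPKM in WT libraries. It was the member called higher, 4.499-fold by means, with a log2 change of 1.62 ± 0.2 (SE, adjusted p = 0.00011) and of 1.42 after rescaling. Its partner in the same GABA route, Aldh5a1, the succinate semialdehyde dehydrogenase, fell, with 1.63, 1.84, 1.06 and 1.56 FPKM in Med1cKO libraries, against 7.59, 9.34, 8.45 and 9.99 FPKM in WT libraries (log2 change -1.97, adjusted p = 2.66e-06).

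**Figure D3:**
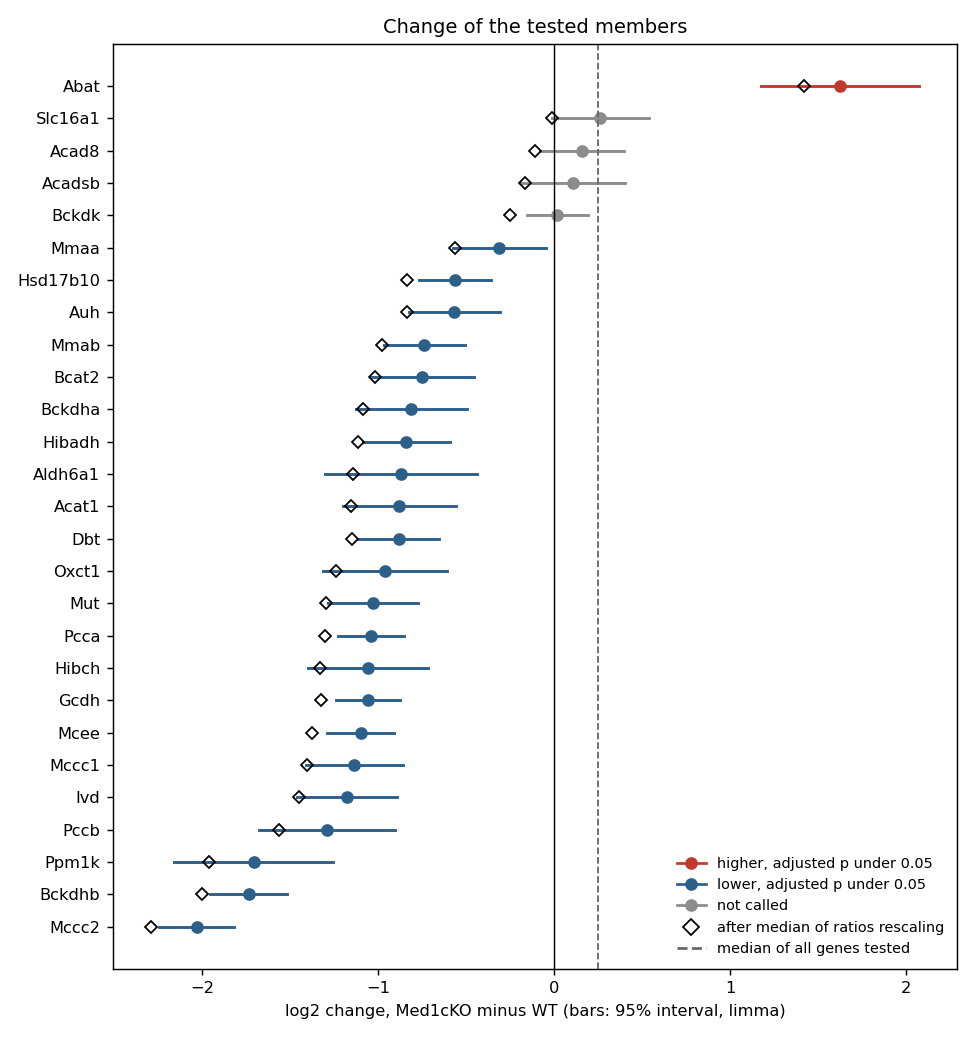
Log2 change (Med1cKO minus WT) of the 27 tested members with 95% intervals from limma, as deposited (filled) and after median of ratios rescaling (open diamonds), with the median of all genes tested as a dashed line at 0.25. Mccc2 has the lowest value at -2.03, 22 members are called lower, and Abat alone is called higher at 1.62.

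The Med1cKO libraries were not alike across the members. Med1cKO 2 was the highest Med1cKO library in 17 of the 27 tested members, and Med1cKO 1 the lowest in 12 and the highest in 8. Med1cKO 4, which stood apart in atrial and adipocyte markers, was the lowest in 10, and without it Slc16a1 and 7 ratio pairs passed. The part of these markers in those values was not tested. The summed cardiomyocyte markers were 23470 FPKM in Med1cKO 2 and 15780 FPKM in Med1cKO 1, the highest and lowest of that group, with 21037 FPKM in Med1cKO 3 and 16804 FPKM in Med1cKO 4. Among WT libraries, WT 2 was the lowest in 16 of 27 members. It also had the lowest cardiomyocyte marker sum of WT, at 47028 FPKM. Of the single markers, Myh6, Tnnt2, Tnni3, Actc1 and Ryr2 were lowest in WT 2 among WT libraries, and Myl2, Actn2, Ttn and Pln were not. The part of the cardiomyocyte markers in the ranks of the libraries was not tested. Leaving out any library in turn gave 21 or 22 members lower.

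Genes around the pathways were counted from 5 further lists. Of 6 branched-chain amino acid transport genes, 3 rose and 3 were not called, both as deposited and after rescaling. Of all genes 44.9% were higher as deposited, near the share of this list, and 27.2% after rescaling. Slc7a5, the transporter of large neutral amino acids at the cell membrane, had 13.9, 10.8, 11.9 and 12.3 FPKM in Med1cKO libraries, against 1.21, 1.01, 1.44 and 1.20 FPKM in WT libraries (log2 change 2.57, limma adjusted p = 3.47e-07). Its heavy chain partner Slc3a2 rose 2.64-fold by means, and Slc25a44, the mitochondrial carrier of branched-chain amino acids, 1.65-fold. All 3 were higher in every Med1cKO library than in any WT library, as were 41.7% of all genes tested. The difference between this list and the members was not tested.

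Of 16 shared enzymes, electron acceptors and cofactor genes, 11 fell and 3 rose, which became 12 and 1 after rescaling, with a median log2 change of -1.06. Of all genes 16.4% were lower and 44.9% higher, and after rescaling 26.9% and 27.2%. Hadh and Echs1, of fatty acid and amino acid oxidation alike, fell to 29.8% and 34.6% of WT. Etfb and Etfdh pass electrons from acyl-CoA dehydrogenases to the respiratory chain, and they fell to 32.0% and 35.2% of WT. Of 7 other ketone genes, 6 were tested, 3 rose and 1 fell, and after rescaling 2 rose and 1 fell, so that the share called higher was near the 44.9% and 27.2% of all genes. Slc16a3, the transporter MCT4 of lactate export, had 29.9, 13.4, 22.2 and 22.5 FPKM in Med1cKO libraries, against 1.06, 1.02, 0.575 and 1.31 FPKM in WT libraries, so that it passed the minimum through Med1cKO. Aacs, which uses acetoacetate for synthesis in the cytosol, rose 3.48-fold by means, and Slc16a6 rose with a log2 change of 0.39 (0.17 after rescaling, not called). Bsg, the chaperone of MCT1 and MCT4, fell to 65.7% of WT.

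Of 10 nitrogen and lysine partners, 6 were tested, 5 fell and 1 was not called, and after rescaling all 6 fell. Of all genes 16.4% were lower as deposited and 26.9% after rescaling. The alanine aminotransferases Gpt2 and Gpt fell most, with Gpt2 at 1.31, 2.37, 1.78 and 2.80 FPKM in Med1cKO libraries, against 14.6, 15.4, 17.9 and 14.4 FPKM in WT libraries. Gpt averaged 2.49 ± 0.504 FPKM in Med1cKO and 16.1 ± 2.08 FPKM in WT (SD, n = 4 each), and Got2, the mitochondrial aspartate aminotransferase, fell to 55.3% of WT. Of 6 transcriptional regulators, 5 fell and 1 was not called, and all 6 fell after rescaling, beside the same shares of all genes. Rxrg, a partner of many nuclear receptors, fell to 16.5% of WT, the coactivator genes Ppargc1b and Ppargc1a to 13.6% and 29.8%, and Ppara to 22.9%. Klf15, chosen after its values were seen as a known regulator of branched-chain amino acid breakdown in the heart, had 25.97, 10.7, 10.9 and 14.9 FPKM in Med1cKO libraries and 31.9, 15.3, 31.9 and 25.4 FPKM in WT libraries. It was not called as deposited (log2 change -0.74, adjusted p = 0.0578) and was lower after rescaling (-1.004, adjusted p = 0.0175).

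**Figure D4:**
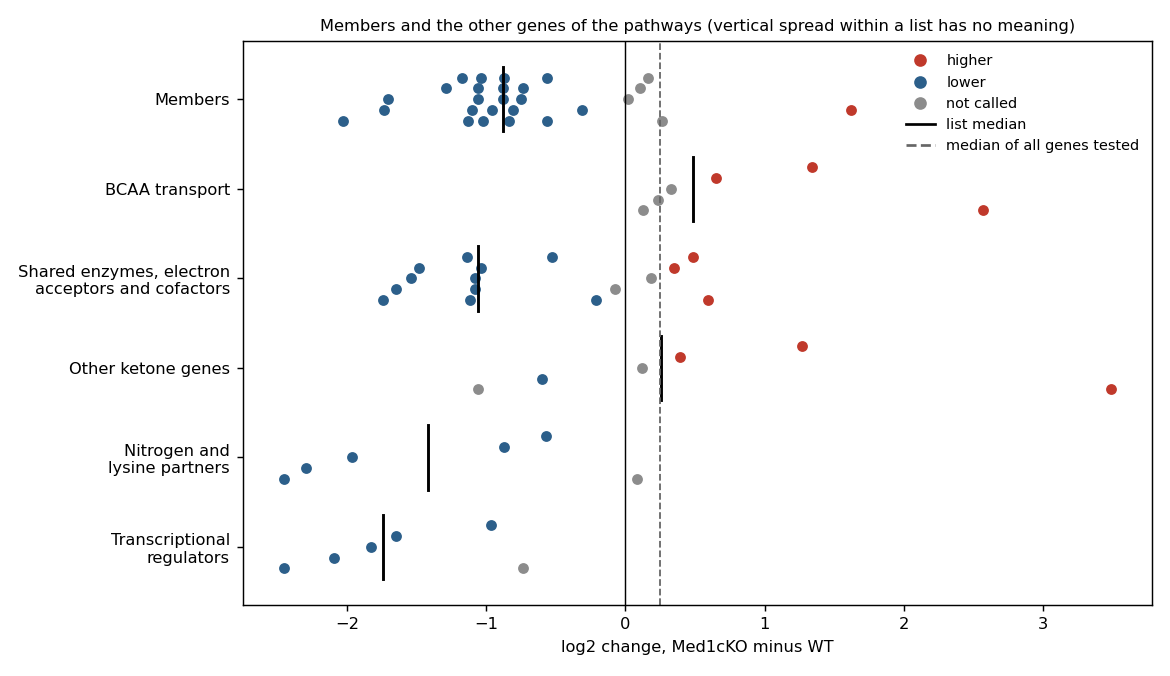
Log2 change (Med1cKO minus WT) of every tested gene by list, coloured by call, with black bars for list medians and the median of all genes tested as a dashed line at 0.25. The medians are -0.88 for the members, 0.49 for transport, -1.06 for shared enzymes, 0.26 for other ketone genes, -1.42 for nitrogen and lysine partners and -1.74 for the regulators.

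In the authors' deposited table of pooled values, 22 members were lower, 2 higher, 4 tested without passing and 1 not tested. The share of all genes called in that table was not computed, so these counts have no background beside them. The authors' deposited table gave Bcat1 (log2 fold change 1.46) and Abat (1.88) as higher, and Bckdk, Acadsb, Acad8 and Slc16a1 as not significant. These are ratios of pooled FPKM with no pseudocount, on another scale, with Bckdk at 41.7 FPKM in pooled WT and 32.4 FPKM in the WT mean. The authors' values were -0.26 for Bckdk, -0.17 for Acadsb, -0.11 for Acad8 and -0.01 for Slc16a1. The main changes of these 4 genes above were positive, and those after median of ratios rescaling negative.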

How the data were processed

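Per the labels' protocols, poly(A) RNA of 8 ventricle samples was made into stranded libraries. The submitters' processing notes name TopHat (version 1.0.0), Cufflinks, Cuffdiff and mm10. No annotation or strand setting for counting is stated in the labels. Values were deposited by the authors as FPKM for each gene in each library. A second deposited table by the authors holds pooled FPKM with a log2 fold change, a test statistic (a score), a p-value and a q-value. Of 23847 rows, 313 with a word in place of a value were left out, and the deposited 0.001 FPKM was read as 0.

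limma (version 3.58.1, R 4.3.3) with an intensity trend was fitted to log2(FPKM + 1) of the 11974 genes that averaged 1 FPKM or more. The test was two-sided, with Benjamini-Hochberg adjustment, and was tried on simulated data. In the simulation few genes changed, in either direction, and no library scale was shifted, so it does not cover a shift of scale between the groups. FPKM depends on what other genes take of a library, so rescaled values are also given. Ratios and Med1 were tested by exact permutation. Exon overlaps (7 members) come from GENCODE M21. With blastn (version 2.17.0) 5 members matched another gene's transcript at 95% identity over at least 200 bases, among them Bckdha with B3gnt8 over 490 bases. Members, lists, pairs and motifs were chosen with earlier results of these data known. All 29 members were to be named, and of each further list the called genes with the 4 largest changes. Alternatives changed the pseudocount, minimum, scaling and trend, blocked on replicate number, or dropped 1 library at a time.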

Additional observations from a re-analysis of the deposited data

Results flagged for a closer look

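In groups of 4 libraries, a library was singled out where its gap to the next exceeded Dixon's 95% critical share of the group's range. Of 60 groups checked (29 members and Med1 in Med1cKO and WT), 4 had such a library, and chance gives about 5%. Aldh6a1 in Med1cKO 1 was at 66.4 FPKM, with the other Med1cKO libraries at 33.7 to 37.9 FPKM. Abat in Med1cKO 1 was at 9.96 FPKM, with the others at 5.58 to 5.82 FPKM. Mut in Med1cKO 4 was at 22.5 FPKM, above 20.8 to 21.0 FPKM in the others, a gap small beside the difference from WT. Mmab in WT 2 was at 7.64 FPKM, below 8.76 to 8.94 FPKM in the other WT libraries. Aldh6a1 and Abat kept their calls without Med1cKO 1.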

How the results depend on the processing

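Of the 23 called members, 22 kept direction and call under every alternative fitted, and Mmaa lost its call under 8 of them. The exception in coverage was Abat, which could not be fitted at a minimum of 5 FPKM, so that 0 members were higher there. With no minimum 2 members were higher, Bcat1 being added. Without single libraries 1 to 2 were higher (2 without Med1cKO 4, which added Slc16a1) and 21 to 22 lower. Median of ratios rescaling gave 3255 genes higher and 3217 lower, and quantile normalization 3437 and 3067, against 5371 and 1964 as deposited, with 50.3% and 52.8% of calls higher in place of 73.2%.

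Rescaling by the median of ratios turned the sign of Bckdk (-0.25), Acad8 (-0.11), Acadsb (-0.16) and Slc16a1 (-0.015), and quantile normalization that of Bckdk (-0.25), Acad8 (-0.10) and Acadsb (-0.17). Without single libraries Bckdk ranged from -0.027 to 0.056. The log2 ratio differences ranged from -0.20 to 0.062 for Acadsb over Acad8, -0.19 to 0.048 for Dbt over Bckdha, -0.17 to 0.032 for Mcee over Mut and -0.25 to 0.053 for Oxct1 over Acat1. Of the 12 pairs, 0 to 7 differed, with 7 (adjusted p = 0.049, exact permutation) without Med1cKO 4. These 7 include Bdh1 over Oxct1, whose separation rests on the pseudocount of 1. Without single libraries the Med1 difference ranged from -7.84 to -5.76 FPKM (-8.72 after median of ratios rescaling), and without a Med1cKO library its exact permutation p was 0.0571. The causes were not tested.

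With the replicate number as a block, 2 members were higher (Slc16a1 added), 22 lower, and 5089 genes were higher and 1867 lower. Libraries with the same number did not deviate together, since the correlations were 0.14, 0.0325, -0.0409 and -0.0138, and not every library correlated best with its own number. The number of fragments behind each FPKM is unknown, which leaves the precision of low members such as Bcat1 and Bdh1 unknown.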
